A study of Mus musculus with 12 samples.

Results

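The genes described here are 32 mouse genes of cholesterol and fatty acid synthesis that SREBP transcription factors are known to control, or that control SREBP. They were taken by name from the deposited gene tables and are 32 of 38924 genes listed there. They comprise 18 enzymes of sterol synthesis, 5 regulators and a sterol carrier taken as a group (Insig1, Srebf1, Srebf2, Scap and Stard4), and 9 enzymes of the fatty acid arm. Msmo1 stood in the tables under its older symbol and was found by its gene identifier, and the other 31 were found by symbol. RNA-seq was made from whole spinal cord of 12 mice at 8 weeks of age. P278KY mice were heterozygous for a mutant Gars allele, P278KY. Gars encodes the synthetase that loads tRNA with glycine. The P278KY mice were 3 females (mice 3, 4 and 9) and 3 males (6, 7 and 8). WT mice were wild type at Gars and were 3 females (mice 1, 2 and 10) and 3 males (5, 11 and 12). The labels give the strain background B6J;CAST for all 12 mice, each library came from a different mouse, and the P278KY allele was in all cells and not limited to a cell type. Dominant mutations of this gene cause an inherited axonal neuropathy in humans, and mice with this allele are used as a model of it.

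SREBP proteins are transcription factors made as membrane precursors in the endoplasmic reticulum. When sterols are scarce, Scap escorts the precursor to the Golgi, where it is cut and its active part moves to the nucleus, and when sterols are plentiful Insig1 holds Scap back. The form encoded by Srebf2 acts mainly on cholesterol genes and the forms encoded by Srebf1 mainly on fatty acid genes. In spinal cord most cholesterol is made locally and is held in myelin, and oligodendrocytes and astrocytes are the main producers.

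A sterol regulatory element is the sequence that SREBP binds, often beside a CCAAT box bound by NF-Y. Promoter windows from RefSeq (GRCm38.p6, 250 bases before to 50 bases after a gene's start, 300 in all) were found by symbol for 25 of the 32 genes. None was found under the symbols Fdps, Fdft1, Sqle, Stard4, Scd1, Scd2 and Fads1. Each window was searched on both strands for the sterol regulatory element core TCACNCCAC, the E-box CACGTG and the box CCAAT. Hmgcs1 is printed because its window held the element core, and Msmo1, Insig1 and Acly because, after the values were seen, they had the smallest P value of the sterol enzymes, of the regulators and carrier, and of the fatty acid arm. Capitals mark matches to these 3 motifs on the printed strand or as their reverse complement, and no matches overlapped. Each sequence runs along the strand of its gene.
Hmgcs1: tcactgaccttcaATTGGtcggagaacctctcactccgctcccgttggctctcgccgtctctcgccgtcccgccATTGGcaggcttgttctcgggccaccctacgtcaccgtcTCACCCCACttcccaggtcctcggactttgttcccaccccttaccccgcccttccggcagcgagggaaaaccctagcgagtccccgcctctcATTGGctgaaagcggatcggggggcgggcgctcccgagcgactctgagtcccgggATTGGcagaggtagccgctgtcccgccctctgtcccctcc
Msmo1: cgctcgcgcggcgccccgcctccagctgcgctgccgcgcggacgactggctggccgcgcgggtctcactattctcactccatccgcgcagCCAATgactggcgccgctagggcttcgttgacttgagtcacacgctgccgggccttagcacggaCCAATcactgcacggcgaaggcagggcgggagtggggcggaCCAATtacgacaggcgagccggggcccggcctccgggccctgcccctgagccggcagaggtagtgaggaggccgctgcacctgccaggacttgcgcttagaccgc
Insig1: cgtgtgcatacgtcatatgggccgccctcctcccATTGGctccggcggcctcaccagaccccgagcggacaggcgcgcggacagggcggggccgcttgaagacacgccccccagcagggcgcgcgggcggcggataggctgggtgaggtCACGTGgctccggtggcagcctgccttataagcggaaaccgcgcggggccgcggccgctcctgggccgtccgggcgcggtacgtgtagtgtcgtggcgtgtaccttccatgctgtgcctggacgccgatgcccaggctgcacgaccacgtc
Acly: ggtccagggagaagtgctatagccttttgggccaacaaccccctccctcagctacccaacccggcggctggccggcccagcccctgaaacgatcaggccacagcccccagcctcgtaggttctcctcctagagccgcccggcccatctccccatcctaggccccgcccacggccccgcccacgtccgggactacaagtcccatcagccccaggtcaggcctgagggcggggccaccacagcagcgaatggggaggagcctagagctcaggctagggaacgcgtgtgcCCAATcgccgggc

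The Hmgcs1 window is chr13:119690101-119690400 on the plus strand, and its match TCACCCCAC runs from base -137 to -129 relative to the start, with the CCAAT box on the other strand at -237, -176, -45 and 11. The Msmo1 window is chr8:64733529-64733828 on the minus strand and holds CCAAT at -160, -96 and -55. The Insig1 window is chr5:28071162-28071461 on the plus strand and holds CACGTG from -101 to -96 and the CCAAT box on the other strand at -216. The Acly window is chr11:100527951-100528250 on the minus strand and holds 1 CCAAT box, at 38 to 42. Across the set, the CCAAT box was in 20 of the 25 genes with a window, against 41.1% of all 27025 genes in the table. It was in 14 of 15 sterol enzymes (Acat2 was the exception), in 3 of 4 regulators and in 3 of 6 fatty acid genes. The E-box was in 5 of the 25 genes (Hsd17b7, Sc5d, Dhcr7, Insig1 and Scap), against 8.09% of all genes. The element core was in 1 of the 25, against 1.44% of all genes. Counted per window of 300 bases, CCAAT was in 67.7% of the 31 windows of these genes, against 37.4% of all windows. A match describes letters in this window and not binding.

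Libraries held 26982140 to 39339999 expected counts, 17980 genes passed the filter on low counts, and all 32 genes described here were among them. Levels between samples are given as CPM, counts scaled to a common library size, and levels between genes as TPM, in which counts are also divided by transcript length. Gars itself, which the allele alters in sequence and not by deletion, had 140.6 ± 2.95 CPM in P278KY cords and 128.7 ± 6.52 CPM in WT cords (SD, n = 6 each). Its log2 difference was 0.13 with a standard error (SE) of 0.03 (edgeR's quasi-likelihood test, adjusted p = 0.046), and this level does not check the genotype labels. Some libraries differed in RNA from neighbouring tissue: summed skeletal muscle markers ranged from 94.06 to 2949 CPM in P278KY cords and from 92.53 to 8230 CPM in WT cords, with mice 1 to 4 highest, and sensory ganglion markers were high in mice 7, 10 and 11.

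By TPM over all 12 mice, Scd2, a stearoyl-CoA desaturase of brain and cord, was the most abundant of the 32 at a mean of 1408, with a range of 1251 to 1587 that did not reach the range of the next gene. Hmgcs1, the synthase that commits acetyl units to the mevalonate route, followed at 404.7, and Scd1, the paralog of Scd2, at 295.3. Acly was next at 203.8, and its range did not reach that of Scd1. From there to the lowest, Hsd17b7 at 22.6 TPM, each gene's range overlapped that of its neighbour in the order, as did the ranges of Hmgcs1 and Scd1. The sum over the 32 genes was 4256 ± 90.7 TPM in P278KY cords and 4706 ± 207.1 TPM in WT cords (SD, n = 6 each).

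P278KY cords had lower mRNA of most of the pathway. Of the 32 genes, 23 fell and 0 rose at an adjusted p under 0.05 (edgeR's quasi-likelihood test with sex as a covariate), where 2.95% of all genes tested were lower and 2.36% were higher. At an unadjusted p under 0.05, 27 were lower and 0 higher, where 10.4% of all genes tested were lower and 9.79% higher. DESeq2 called 26 lower and 0 higher, with 5.01% of all genes lower and 3.99% higher. Limma voom called 25 lower and 0 higher, with 4.59% of all genes lower and 3.57% higher. The median log2 change was -0.23 over the 32 genes and -0.003 over all genes tested, and 29 of the 32 values were negative. The falls were small, in this fit between 1.071-fold for Acaca and 1.345-fold for Acat2. For 13 genes every P278KY mouse lay below every WT mouse in CPM, where 2% of all genes tested were separated in that direction and 1.73% in the other. In TPM, Fdps and Hsd17b7 were still separated in this way, and the other genes of the 13 overlapped between genotypes. In whole cord, fewer cells of a type and less RNA per cell cannot be told apart.

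The count of 23 depended on which mice entered and on the unit. It was 15 without P278KY male 6 and 15 without WT male 11, where 1.71% and 2.09% of all genes were lower. It was 13 without mice 1 to 4, 9 without mice 7, 10 and 11, and 3 without mice 9 to 12, a set taken from an earlier analysis of these data that the labels do not mark. In these fits 1.93%, 0.915% and 0.304% of all genes were lower. The set of mice 9 to 12 held P278KY female 9, WT female 10 and WT males 11 and 12. Genotype and this set were therefore confounded in part. On log2(TPM + 1) the count was 12, where 1.38% of all genes were lower. On TPM 84.6% of all calls were higher in P278KY, against 44.5% on counts. The median of the 32 genes was between -0.21 and -0.27 in all of these settings on counts, and -0.15 on log2(TPM + 1), where the median of all genes was 0.06. Of the 23, Hmgcs1, Mvk, Sqle, Ebp, Acaca, Scd1, Scd2 and Elovl6 lost their call when at least 1 of the 12 mice was left out, with adjusted p values of up to 0.107.

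**Figure D1:**
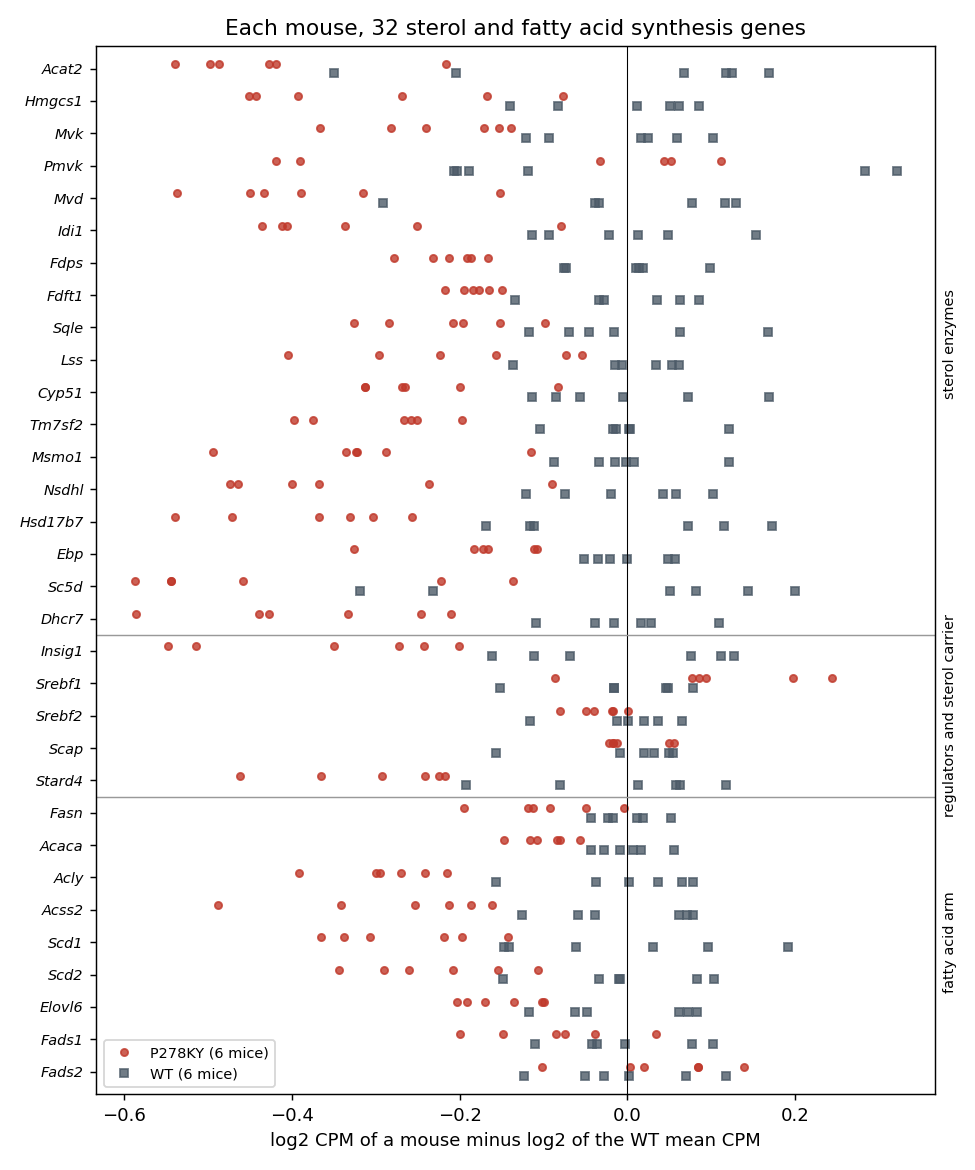
Each point is 1 mouse: the log2 CPM of a gene minus log2 of its WT mean CPM (x axis) for the 32 genes (y axis, by arm), with P278KY mice as circles and WT mice as squares. For 13 genes, such as Msmo1, Dhcr7 and Acly, all 6 circles lie left of all 6 squares.

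Among sterol enzymes, 15 of 18 fell, the other 3 had negative values, and the median log2 change was -0.29. The enzymes that make and phosphorylate mevalonate come first. Acat2, the cytosolic thiolase that joins acetyl units, had 63.5, 67.2 and 79.4 CPM (lowest, median and highest) in P278KY cords, against 72.4, 98.4 and 103.7 CPM in WT cords. The groups overlapped (log2 -0.43, SE 0.09, adjusted p = 0.017). Hmgcs1 had 530.1, 576.7 and 687.3 CPM in P278KY cords, against 657.6, 740.5 and 768.8 CPM in WT cords. These ranges overlapped through P278KY male 8, the highest P278KY mouse, and the log2 change was -0.29 (SE 0.07, adjusted p = 0.025). Mvk, mevalonate kinase, averaged 26.0 ± 1.57 CPM in P278KY cords and 30.4 ± 1.82 CPM in WT cords (SD, n = 6 each) with no overlap (log2 -0.22, SE 0.05, adjusted p = 0.024). Pmvk, the next kinase, averaged 29.6 ± 4.61 CPM in P278KY cords and 31.5 ± 5.74 CPM in WT cords and did not pass (log2 -0.09, SE 0.14, adjusted p = 0.787). Mvd, which makes isopentenyl diphosphate, had 23.7, 25.8 and 30.9 CPM in P278KY cords, against 28.1, 34.9 and 37.6 CPM in WT cords, and fell (log2 -0.37, SE 0.06, adjusted p = 0.0047).

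The next enzymes assemble isoprene units into squalene. Idi1, the isomerase of the isoprene unit, had 103.1, 107.8 and 132 CPM in P278KY cords, against 128.8, 138.9 and 155 CPM in WT cords. Its ranges met at 1 P278KY mouse and its log2 change was -0.31 (SE 0.06, adjusted p = 0.013). Fdps makes farnesyl diphosphate, from which sterols, ubiquinone, dolichol and protein prenyl groups all derive. Fdps had 74.1, 71.8 and 73.8 CPM in P278KY females 3, 4 and 9 and 69.6, 75.1 and 72.8 CPM in P278KY males 6, 7 and 8, against 85.2, 80.0 and 80.2 CPM in WT females 1, 2 and 10 and 85.5, 90.3 and 84.9 CPM in WT males 5, 11 and 12. All P278KY mice lay within a narrow band below the lowest WT mouse, and the log2 change was -0.21 (SE 0.03, adjusted p = 0.0032). Fdft1, squalene synthase, the branch toward sterols, had 107.2, 110.0 and 112.4 CPM in P278KY cords, against 113.6, 125.0 and 132.3 CPM in WT cords, without overlap (log2 -0.18, SE 0.03, adjusted p = 0.0062). Sqle, squalene epoxidase, averaged 117.5 ± 6.79 CPM in P278KY cords and 135.8 ± 9.93 CPM in WT cords and fell (log2 -0.21, SE 0.05, adjusted p = 0.026). Lss, which closes the sterol rings, averaged 92.1 ± 8.48 CPM in P278KY cords and 105.5 ± 5.19 CPM in WT cords and did not pass (log2 -0.20, SE 0.06, adjusted p = 0.06).

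Of the enzymes that turn lanosterol into cholesterol, Msmo1, Tm7sf2, Hsd17b7, Ebp and Dhcr7 separated the genotypes in all mice by CPM. Msmo1 is an oxidase in the removal of methyl groups from the sterol ring after the step of Cyp51. It had 124, 111.1 and 125.1 CPM in P278KY females 3, 4 and 9 and 125, 128.1 and 144.5 CPM in P278KY males 6, 7 and 8, against 157.3, 154.9 and 147.2 CPM in WT females 1, 2 and 10 and 170.1, 156.3 and 152.8 CPM in WT males 5, 11 and 12. Its highest P278KY mouse, male 8, was just under its lowest WT mouse, female 10 (log2 -0.31, SE 0.05, adjusted p = 0.002). Nsdhl, the dehydrogenase of the same methyl removal, averaged 33.2 ± 3.55 CPM in P278KY cords and 41.8 ± 2.45 CPM in WT cords (log2 -0.33, SE 0.06, adjusted p = 0.0071). Hsd17b7, the reductase that completes each round, had 39.6, 34.3 and 41.7 CPM in P278KY females 3, 4 and 9 and 35.9, 40.4 and 38.6 CPM in P278KY males 6, 7 and 8, against 46, 44.4 and 46.1 CPM in WT females 1, 2 and 10 and 56.2, 54.0 and 52.4 CPM in WT males 5, 11 and 12. The WT males were the highest mice for Hsd17b7, and the log2 change was -0.37 (SE 0.06, adjusted p = 0.0036).

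Cyp51, the lanosterol demethylase, had 145.4, 150.2 and 170.6 CPM in P278KY cords, against 167, 176.8 and 203.1 CPM in WT cords, with slight overlap (log2 -0.24, SE 0.04, adjusted p = 0.0063). Tm7sf2, a sterol reductase, had 16.2, 17.7 and 17.8 CPM in P278KY females 3, 4 and 9 and 17.9, 16.4 and 18.6 CPM in P278KY males 6, 7 and 8, against 21.3, 21.0 and 19.8 CPM in WT females 1, 2 and 10 and 23.2, 21.3 and 21.1 CPM in WT males 5, 11 and 12. It was among the lowest genes of the set by CPM and still separated all mice (log2 -0.29, SE 0.05, adjusted p = 0.0036). Ebp, the sterol isomerase, had 18.9, 21.0 and 21.9 CPM in P278KY cords, against 22.8, 23.5 and 24.6 CPM in WT cords (log2 -0.18, SE 0.04, adjusted p = 0.032). Sc5d, a sterol desaturase, had 73.2, 77.7 and 100.1 CPM in P278KY cords, against 88.2, 115.2 and 126.3 CPM in WT cords. Its difference was among the largest of the set but so was its spread, and it did not pass (log2 -0.41, SE 0.11, adjusted p = 0.063). Dhcr7, which catalyses a final reduction to cholesterol, had 53.8, 45.2 and 57.2 CPM in P278KY females 3, 4 and 9 and 50.4, 49.99 and 58.6 CPM in P278KY males 6, 7 and 8, against 68.6, 67.0 and 62.9 CPM in WT females 1, 2 and 10 and 69.1, 73.1 and 66.0 CPM in WT males 5, 11 and 12. The groups did not overlap, and Dhcr7 fell (log2 -0.37, SE 0.06, adjusted p = 0.0036).

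**Figure D2:**
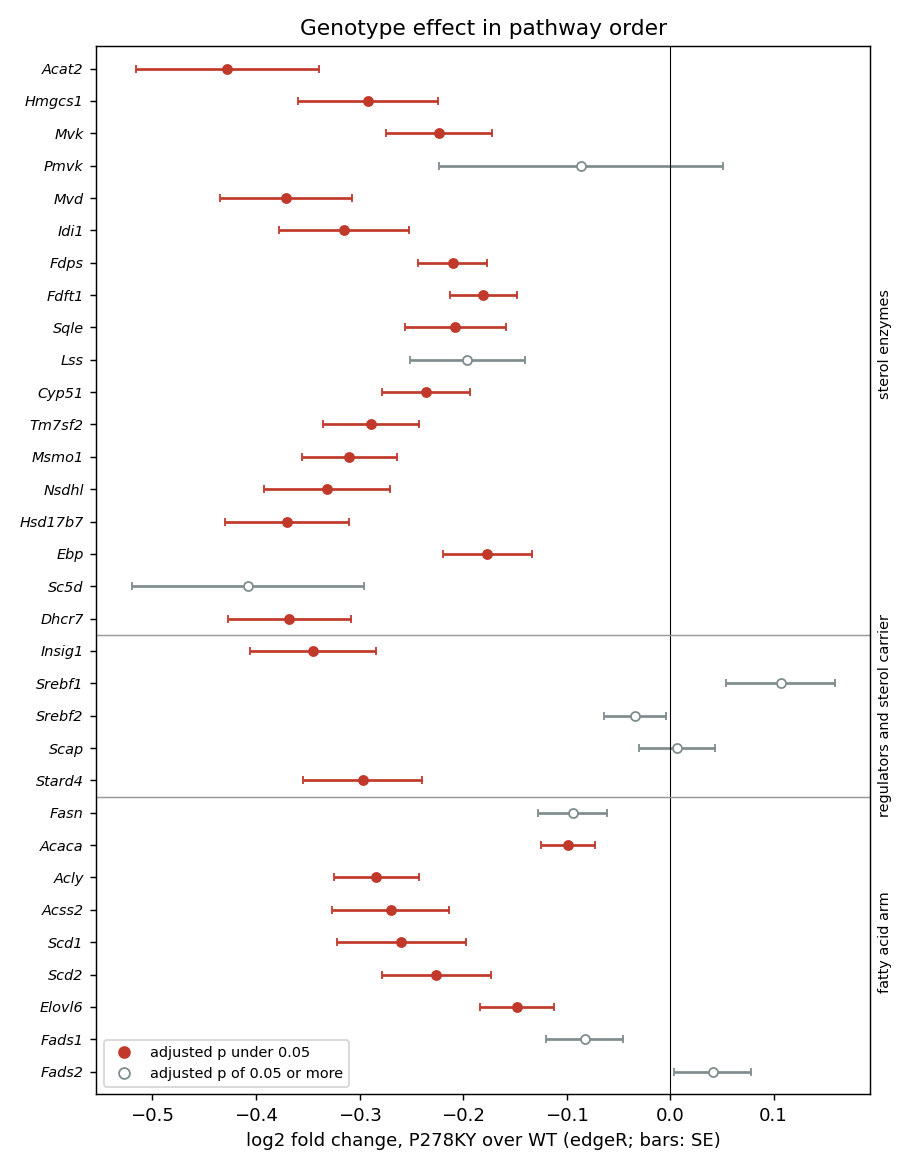
Log2 fold change of P278KY over WT (x axis) for each of the 32 genes (y axis, sterol enzymes in pathway order, then regulators and carrier, then the fatty acid arm), with bars for SE and filled points for an adjusted p under 0.05. Filled points are 15 of 18, 2 of 5 and 6 of 9 in the 3 arms, and all lie left of 0.

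Among the 5 regulators and carrier, Insig1 and Stard4 fell, and Srebf1, Srebf2 and Scap did not pass. Insig1, the sterol-dependent brake on Scap and itself a target of SREBP, had 144.2, 125.8 and 155.4 CPM in P278KY females 3, 4 and 9 and 152.2, 128.7 and 159.9 CPM in P278KY males 6, 7 and 8, against 164.4, 175.3 and 170.1 CPM in WT females 1, 2 and 10 and 200.8, 198.6 and 193.7 CPM in WT males 5, 11 and 12. The groups did not overlap, and the log2 change was -0.34 (SE 0.06, adjusted p = 0.0062). Stard4, a soluble carrier that moves cholesterol between membranes, had 53.8, 51.1 and 56.6 CPM in P278KY females 3, 4 and 9 and 55.7, 47.8 and 56.3 CPM in P278KY males 6, 7 and 8, against 71.5, 57.6 and 62.3 CPM in WT females 1, 2 and 10 and 68.5, 68.8 and 66.4 CPM in WT males 5, 11 and 12. WT female 2 lay only just above the highest P278KY mouse, and Stard4 fell (log2 -0.30, SE 0.06, adjusted p = 0.0094).

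The genes of the SREBP machinery itself overlapped between genotypes. Srebf1 had 98.2, 98.8 and 106.7 CPM in P278KY females 3, 4 and 9 and 110.2, 99.3 and 87.7 CPM in P278KY males 6, 7 and 8, against 83.8, 92.0 and 92.0 CPM in WT females 1, 2 and 10 and 98.3, 96.2 and 96.1 CPM in WT males 5, 11 and 12. P278KY male 8 was lower than 5 of the 6 WT mice, and the log2 difference was 0.11 (SE 0.05, adjusted p = 0.283). Srebf2 had 233.7, 240.5 and 244.2 CPM in P278KY females 3, 4 and 9 and 247.2, 238.8 and 244.0 CPM in P278KY males 6, 7 and 8, against 253.4, 247.2 and 228.1 CPM in WT females 1, 2 and 10 and 258.5, 250.5 and 245.1 CPM in WT males 5, 11 and 12. WT female 10 was the lowest mouse of all (log2 -0.03, SE 0.03, adjusted p = 0.59), and on log2(TPM + 1) the Srebf2 difference was 0.04. Scap had 99.96, 100.3 and 104.7 CPM in P278KY females 3, 4 and 9 and 105.1, 99.98 and 99.58 CPM in P278KY males 6, 7 and 8, against 90.7, 104.7 and 105 CPM in WT females 1, 2 and 10 and 102.5, 100.5 and 103.4 CPM in WT males 5, 11 and 12. Apart from WT female 1 the 12 mice lay close together (log2 0.01, SE 0.04, adjusted p = 0.947), and the sign of Scap changed with the mice and the tool.

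In TPM, Insig1 was 2.01 ± 0.217 times Scap in P278KY cords and 2.57 ± 0.185 times Scap in WT cords (SD, n = 6 each), with a range of 1.66 to 2.29 in P278KY and 2.34 to 2.87 in WT. The ratio of Hmgcs1 to Srebf2 was 3.85 ± 0.441 in P278KY cords and 4.60 ± 0.256 in WT cords, with overlap. Srebf2 was 1.45 ± 0.135 times Srebf1 in P278KY cords and 1.61 ± 0.131 times in WT cords, also with overlap. These ratios of genes already described are given without a test.

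In the fatty acid arm 6 of 9 genes fell, with a median log2 change of -0.15. The enzymes that supply acetyl-CoA come first. Acly, which splits citrate in the cytosol, had 381.6, 375.1 and 373.9 CPM in P278KY females 3, 4 and 9 and 396.5, 350.9 and 389.2 CPM in P278KY males 6, 7 and 8, against 413, 471.9 and 448.5 CPM in WT females 1, 2 and 10 and 460.9, 485.7 and 481.4 CPM in WT males 5, 11 and 12. The groups did not overlap and Acly had the smallest P value of the 32 genes (log2 -0.28, SE 0.04, adjusted p = 0.0017). Acss2, which makes acetyl-CoA from acetate, had 99.7, 98.0 and 88.1 CPM in P278KY females 3, 4 and 9 and 96.2, 79.5 and 93.6 CPM in P278KY males 6, 7 and 8, against 102.3, 117.8 and 107.1 CPM in WT females 1, 2 and 10 and 116.4, 117.2 and 108.6 CPM in WT males 5, 11 and 12. P278KY male 7 was the lowest mouse and the groups did not overlap (log2 -0.27, SE 0.06, adjusted p = 0.015).

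Acaca, acetyl-CoA carboxylase, the committed step of fatty acid synthesis, had 167, 173 and 177.8 CPM in P278KY cords, against 179.5, 184.8 and 192.2 CPM in WT cords. It had the smallest fall among those that passed (log2 -0.10, SE 0.03, adjusted p = 0.046), and its value on log2(TPM + 1) was 0.03 with an adjusted p of 0.641. Fasn, which builds palmitate, had 533.7, 569.0 and 609 CPM in P278KY cords, against 592.6, 609.8 and 633.6 CPM in WT cords, and did not pass (log2 -0.09, SE 0.03, adjusted p = 0.127). Elovl6, which lengthens palmitate, had 103.3, 107 and 111 CPM in P278KY cords, against 109.6, 119.5 and 126 CPM in WT cords, with slight overlap (log2 -0.15, SE 0.04, adjusted p = 0.032).

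Scd1 and Scd2 put the first double bond into saturated chains. Scd1 had 719.1, 692.3 and 681.9 CPM in P278KY females 3, 4 and 9 and 641.8, 616.4 and 628.2 CPM in P278KY males 6, 7 and 8, against 719.8, 760.7 and 810.5 CPM in WT females 1, 2 and 10 and 906, 848.7 and 716.5 CPM in WT males 5, 11 and 12. The ranges met at P278KY female 3 and WT male 12 (log2 -0.26, SE 0.06, adjusted p = 0.03). Scd2 had 3805, 3667 and 3934 CPM in P278KY females 3, 4 and 9 and 3338, 3535 and 3463 CPM in P278KY males 6, 7 and 8, against 3822, 4207 and 4211 CPM in WT females 1, 2 and 10 and 4550, 4485 and 4139 CPM in WT males 5, 11 and 12. P278KY female 9 lay above WT female 1 (log2 -0.23, SE 0.05, adjusted p = 0.026), and the TPM ratio of Scd2 to Scd1 was 4.83 ± 0.215 in P278KY cords and 4.73 ± 0.234 in WT cords (SD, n = 6 each). Fads1 and Fads2, which desaturate polyunsaturated chains, did not pass. Fads1 averaged 294.7 ± 16.8 CPM in P278KY cords and 312.3 ± 17.2 CPM in WT cords (log2 -0.08, SE 0.04, adjusted p = 0.236). Fads2 averaged 105.8 ± 6.11 CPM in P278KY cords and 102.9 ± 6.16 CPM in WT cords (log2 0.04, SE 0.04, adjusted p = 0.598).

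Some of these genes share sequence with other genes. In GENCODE M21 transcripts, 33.9% of the 75-base words of Acat2 also occur in another gene, as do 26.8% for Acaca, 23.5% for Fdps, 16.7% for Idi1, 8.83% for Tm7sf2 and 5.21% for Fdft1. For Scd1 the share was 3.15% and for Scd2 1.78%. The expected counts of Acat2, Idi1, Fdft1, Lss, Tm7sf2, Msmo1, Scap, Acss2, Scd1, Scd2 and Elovl6 were not whole in any of the 12 mice. Reads of these genes were therefore divided with other genes, and their values are less certain. Lss, Msmo1, Scap and Acss2 shared 0 words in GENCODE M21, so the word shares do not show the genes involved. The counts of Sqle, Srebf1 and Stard4 were whole in 8 mice. Counts of Fdps were whole in all 12 mice and those of Acaca in 11.

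Each mouse was also summarised by the mean, over the genes of an arm, of its log2 CPM minus that gene's mean over the 12 mice. For sterol enzymes these means ran from -0.23 to -0.06 in P278KY mice and from 0.03 to 0.24 in WT mice, and for the fatty acid arm from -0.14 to -0.05 in P278KY mice and from -0.02 to 0.16 in WT mice. The genotypes did not overlap in either arm, while the regulators and carrier overlapped, at -0.13 to 0.02 in P278KY mice and -0.004 to 0.13 in WT mice. P278KY female 4 was the lowest P278KY mouse for 14 genes and P278KY male 8 the highest for 11. WT male 11 was the highest WT mouse for 14 genes and WT male 5 for 11, and WT females 1, 2 and 10 were the lowest for 10, 9 and 11. P278KY mice had 22 to 30 of the 32 genes below the gene's mean over all mice, and WT mice had 0 to 9. These means and counts restate the values behind the tests above, with each gene centred on its mean over the same 12 mice. They were not computed over all genes and are no further support.

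**Figure D3:**
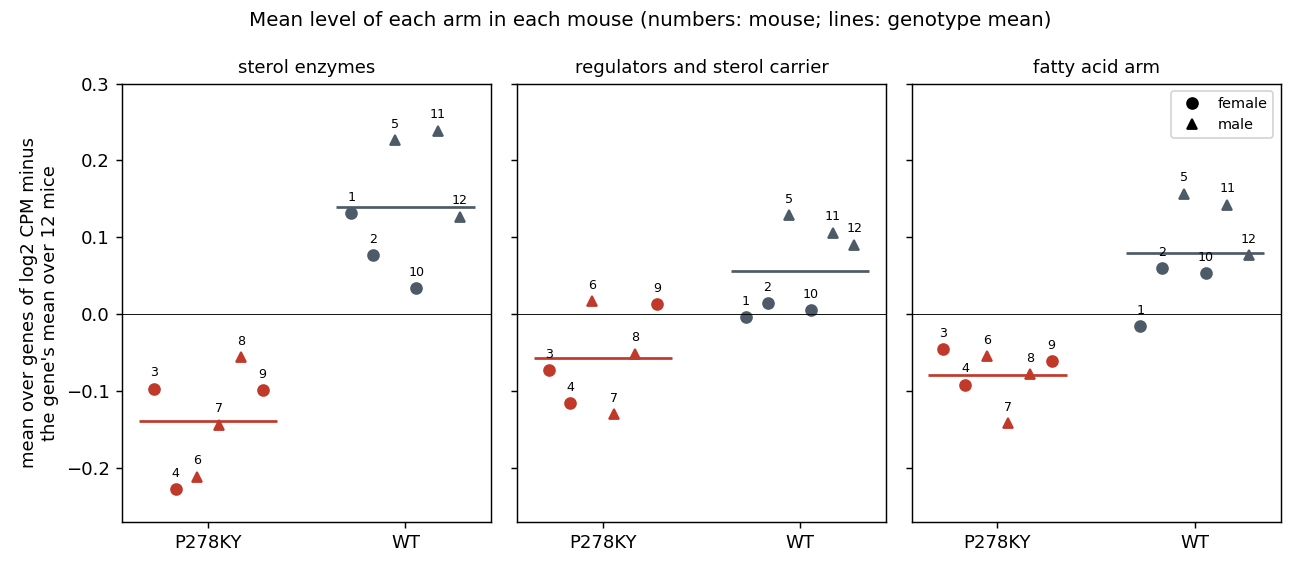
Mean over the genes of an arm of log2 CPM minus the gene's mean over 12 mice (y axis) for each numbered mouse, P278KY left and WT right, circles for females, triangles for males and lines for genotype means. In sterol enzymes and the fatty acid arm every P278KY mouse is below every WT mouse, and WT males 5 and 11 are highest.

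Within the sexes the same contrast was fitted over 4 group means, with 3 P278KY and 3 WT mice of each sex. In females 1 of the 32 genes passed, Msmo1 (log2 -0.35, SE 0.07, adjusted p = 0.04), where 0.384% of all genes tested were lower and 0.189% higher. At an unadjusted p under 0.05, 19 were lower in P278KY females and 1 higher, where 6.54% of all genes tested were lower and 5.82% higher. The higher gene was Srebf1, whose values in all 3 P278KY females lay above those of all 3 WT females (log2 0.18, SE 0.07, unadjusted p = 0.027, adjusted p = 0.328). In males 12 fell, where 1.03% of all genes tested were lower and 0.517% higher. At an unadjusted p under 0.05, 26 were lower in P278KY males and 0 higher, where 7.68% of all genes tested were lower and 6.62% higher. The 12 were Mvd, Fdps, Cyp51, Tm7sf2, Hsd17b7, Dhcr7, Insig1, Acly, Acss2, Scd1, Scd2 and Elovl6, and among these Hsd17b7 had the largest change in males (log2 -0.50, SE 0.07, adjusted p = 0.0047). The median change was -0.19 in females and -0.29 in males, and 28 of the 32 genes had a negative value in both sexes. The count in males was 1 without WT male 11, 2 without P278KY male 6, 4 without WT male 12, and 5 without WT male 5 or without P278KY male 7. WT males 11 and 12 were in the set of mice 9 to 12, and P278KY males 6, 7 and 8 were not.

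The difference between the sexes was tested as an interaction. Of the 17980 genes 0 passed by edgeR's quasi-likelihood test, in either direction and with either library scaling, and 5 of the 32 had an unadjusted p under 0.05. All 5 had a positive difference, where 1.81% of all genes tested had a positive and 1.89% a negative one at that threshold. Pmvk had 30.8, 34.1 and 32.7 CPM in P278KY females 3, 4 and 9, against 27.4, 27.7 and 27.3 CPM in WT females 1, 2 and 10. In males Pmvk had 23.6, 32.5 and 24.0 CPM in P278KY mice 6, 7 and 8, against 38.4, 39.4 and 29.0 CPM in WT mice 5, 11 and 12. All P278KY females thus lay above all WT females, while the males overlapped with P278KY lower on average, and the female effect minus the male effect was 0.66 (SE 0.19, unadjusted p = 0.0044, adjusted p = 0.713). The other 4 were Elovl6 (0.18, unadjusted p = 0.0078), Scd2 (0.25, unadjusted p = 0.011), Hsd17b7 (0.26, unadjusted p = 0.021) and Scd1 (0.26, unadjusted p = 0.03), and none of these passed the adjustment. Between the sexes themselves, females over males, 0 of the 32 genes passed by edgeR's quasi-likelihood test, where 0.0501% of all genes tested were higher and 0.0389% lower. At an unadjusted p under 0.05, 6 were lower in females (Mvd, Cyp51, Msmo1, Insig1, Fads1 and Fads2) and 0 higher, where 3.68% of all genes tested were lower and 5.27% higher. Of the 32 values 27 were negative. Mice 1 to 4, the highest in skeletal muscle markers, were all female. All 10 of these markers were higher in females at an unadjusted p under 0.05, with a median log2 difference of 4.46. Sex and muscle RNA were therefore confounded in part, and the part of muscle RNA in these differences between the sexes was not tested.

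**Figure D4:**
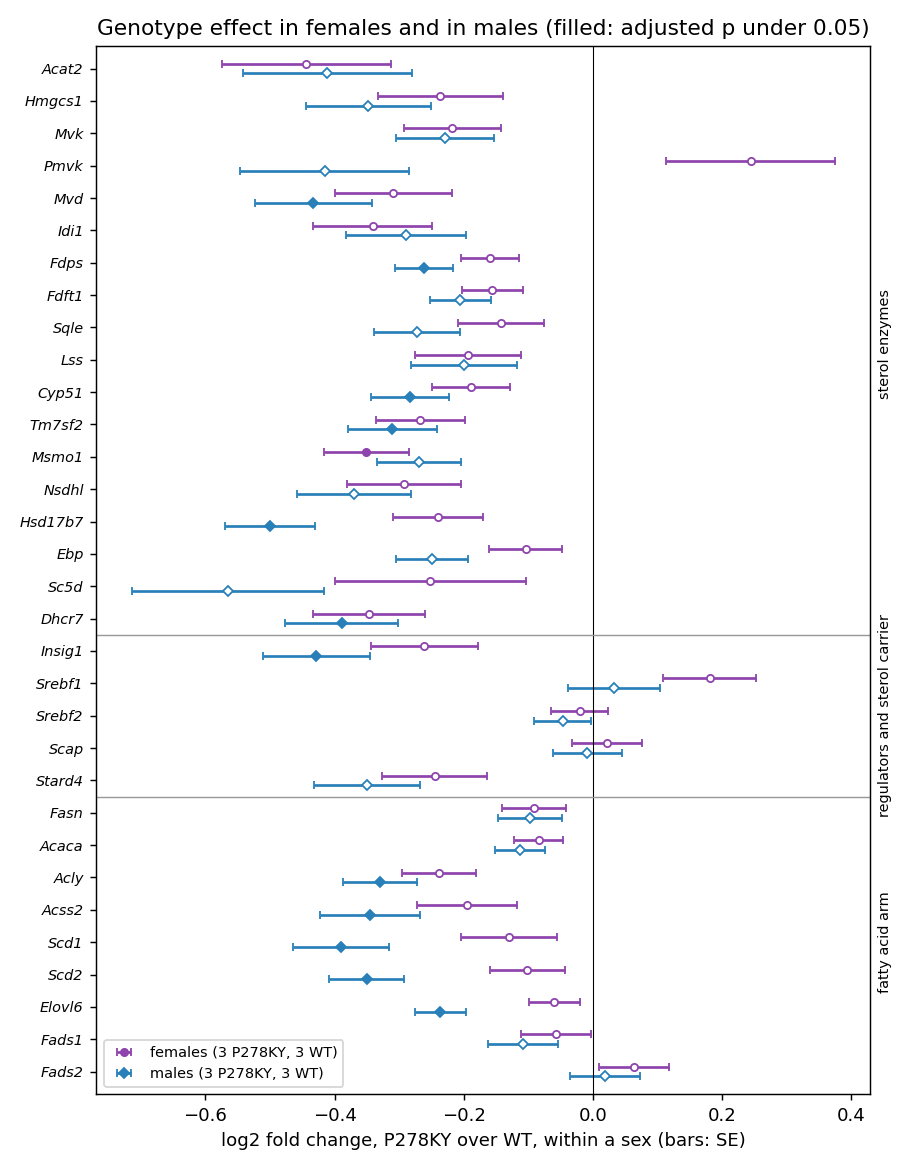
Log2 fold change of P278KY over WT (x axis) for the 32 genes (y axis) within females (circles) and within males (diamonds), with bars for SE and filled points for an adjusted p under 0.05. Filled points are 1 in females and 12 in males, and Pmvk has values on opposite sides of 0.

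Other lipid genes were read beside the 32. Of 24 further sterol synthesis and SREBP target genes tested, 6 fell and 0 rose, with a median log2 change of -0.11. Over all genes tested, 2.95% were lower and 2.36% higher. Cyb5r3, a reductase that feeds electrons to sterol and fatty acid enzymes, averaged 70.8 ± 3.42 CPM in P278KY cords and 91.3 ± 4.18 CPM in WT cords (log2 -0.37, SE 0.04, adjusted p = 0.00026). Slc25a1, which exports citrate from mitochondria for Acly, averaged 63.7 ± 1.79 CPM in P278KY cords and 81.6 ± 4.64 CPM in WT cords (log2 -0.36, SE 0.04, adjusted p = 0.00028). Elovl5, Hsd17b12 and Rdh11 also fell.

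Counts of genes that fell or rose in the next 4 lists are to be read beside 2.95% of all genes tested lower and 2.36% higher. Of 16 genes that process or degrade SREBP and its partners, 0 fell and 0 rose by edgeR's quasi-likelihood test. In this list 2 had an unadjusted p under 0.05, both lower, where 10.4% of all genes tested were lower. DESeq2 and limma voom each called 1 of the 16 lower, where 5.01% and 4.59% of all genes were lower. Mid1ip1 had the smallest P value (log2 -0.13, SE 0.04, adjusted p = 0.055), and the list's median was -0.04. In the isoprenoid branch that does not lead to sterols 2 of 13 genes fell, both subunits of protein farnesyltransferase: Fntb (log2 -0.32, SE 0.05, adjusted p = 0.0047) and Fnta (log2 -0.13, SE 0.03, adjusted p = 0.03). Of 25 genes of the LXR response, efflux, uptake, storage and turnover of cholesterol, 3 fell (Cyp27a1, a sterol hydroxylase, and the lysosomal genes Npc2 and Lipa), 0 rose, and the median was 0.002. DESeq2 and limma voom each called 1 of these 25 higher, where 3.99% and 3.57% of all genes were higher. Of 13 other elongase and myelin lipid genes 1 fell, the elongase Elovl1 (log2 -0.26, SE 0.05, adjusted p = 0.0051). Of the 13, 11 had negative values, and the median was -0.10. At an unadjusted p under 0.05, 8 were lower and 0 higher, where 10.4% of all genes tested were lower and 9.79% higher. DESeq2 and limma voom each called 3 lower, where 5.01% and 4.59% of all genes were lower. Within the sexes 4 fell in males and 0 in females, where 1.03% and 0.384% of all genes tested were lower.

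**Figure D5:**
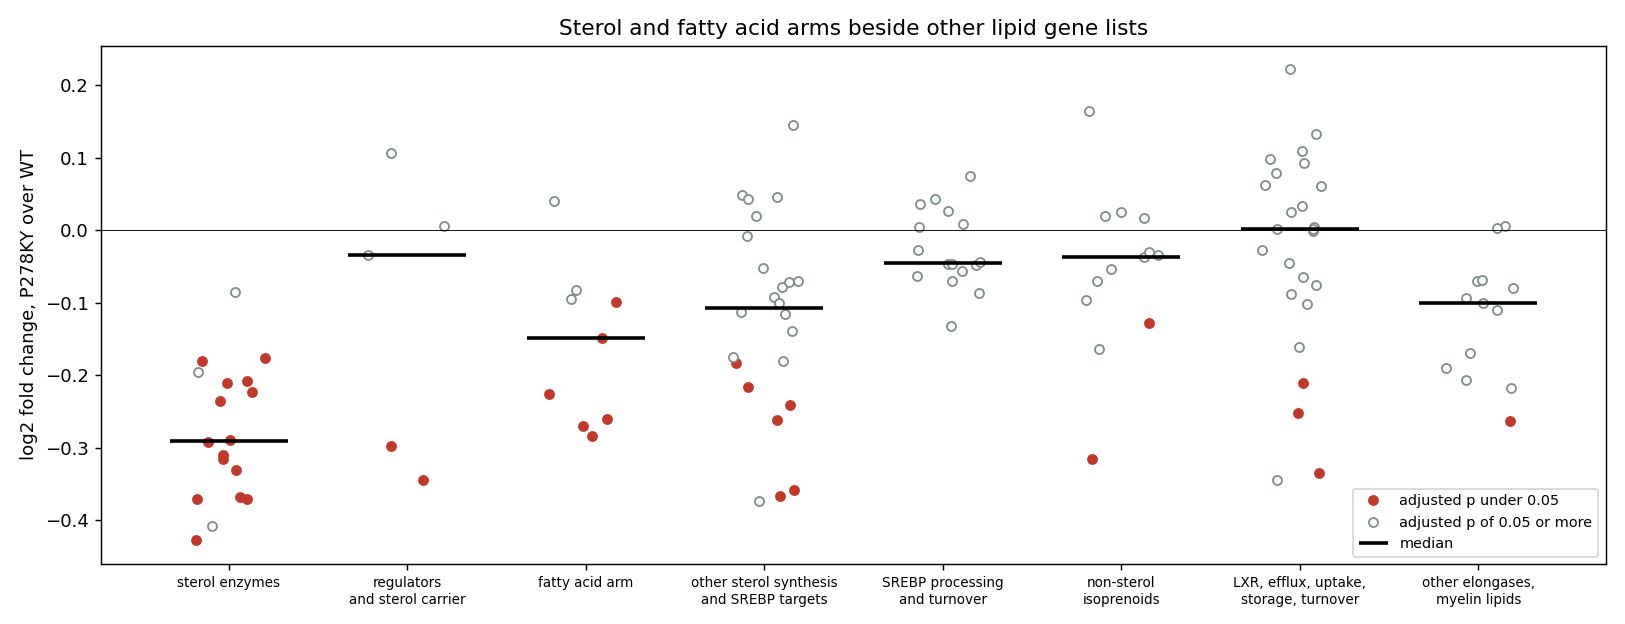
Log2 fold change of P278KY over WT (y axis) for each gene tested in the 3 arms and in 5 further lipid gene lists (x axis), with filled points for an adjusted p under 0.05 and lines for list medians. The medians run from -0.29 in sterol enzymes to 0.002 in the LXR and efflux list, and all filled points are below 0.

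Markers of the cell types in the libraries were read as sums of CPM. Counts of markers that fell or rose are to be read beside 2.95% of all genes tested lower and 2.36% higher. Myelin genes of oligodendrocytes summed to 27430 to 33610 CPM in P278KY cords and 29060 to 38950 CPM in WT cords. Of these 14 genes 2 fell (Trf and Gjb1), and their median log2 change was -0.02. Precursors of oligodendrocytes summed to 1102 to 1333 CPM in P278KY cords and 1201 to 1558 CPM in WT cords, and 0 of 10 markers passed by edgeR's quasi-likelihood test. At an unadjusted p under 0.05, 1 was lower, where 10.4% of all genes tested were lower. Astrocyte markers summed to 8310 to 9537 CPM in P278KY cords and 7719 to 8616 CPM in WT cords, and 1 of 10 rose, the glutamate transporter gene Slc1a3. Positive values were found for 8 of the 10. At an unadjusted p under 0.05, 4 were higher and 1 lower, where 9.79% of all genes tested were higher and 10.4% lower. DESeq2 called 3 astrocyte markers higher, where 3.99% of all genes were higher, and limma voom 1, where 3.57% were higher. Neuronal markers summed to 4133 to 4386 CPM in P278KY cords and 3997 to 4729 CPM in WT cords. Of these 9 genes 1 fell, Stmn2 (log2 -0.27, SE 0.05, adjusted p = 0.0047), and 1 rose, Syt1 (log2 0.16, SE 0.04, adjusted p = 0.024). Those of motor neurons, of which 4 of 6 fell, summed to 125.8 to 144.3 CPM in P278KY cords and 161.3 to 247.5 CPM in WT cords, without overlap.

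Markers of Schwann cells, the myelin cells of nerve roots, which also make cholesterol, moved with genotype. They summed to 470.5 to 1588 CPM in P278KY cords and 1514 to 2619 CPM in WT cords, 8 of 10 had negative values with a median log2 change of -0.74, and Pmp2, Gldn and Pmp22 fell. The highest P278KY mouse by this sum was male 7 and the lowest WT mouse was female 2. Fibroblast and meningeal markers, of which 1 of 8 fell, summed to 433.8 to 586.8 CPM in P278KY cords and 510.2 to 1240 CPM in WT cords. Microglial markers summed to 282.9 to 343.7 CPM in P278KY cords and 287.9 to 374.9 CPM in WT cords, and those of endothelium to 255.4 to 285.7 CPM in P278KY cords and 244.5 to 360.2 CPM in WT cords. Red blood cell markers summed to 1350 to 2271 CPM in P278KY cords and 816.3 to 3569 CPM in WT cords. Adipocyte markers summed to 27.8 to 70.6 CPM in P278KY cords and 20.8 to 64.7 CPM in WT cords, and 9 of 10 had positive values. The part of Schwann, motor neuron and fibroblast markers in the falls of the 32 genes was not tested.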

How the data were processed

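RNA-seq of whole spinal cord from 12 mice was analysed, 6 P278KY and 6 WT with 3 females and 3 males of each, grouped by the sample titles. Per the labels' protocols, polyadenylated RNA was sequenced as stranded libraries from both fragment ends. Per the submitters' processing notes, the authors used Bowtie2 2.2.0 and RSEM 1.2.12. Genome build and annotation: not given in the sources used here. Per the file headers, the authors deposited expected counts, which RSEM estimates by sharing out reads that match several genes. The deposited TPM values are scaled by transcript length and library. The deposited FPKM values and the deposited length columns were not used.

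Expected counts were rounded to whole numbers, filtered with filterByExpr of edgeR over the 4 groups, which kept 17980 genes, and scaled with TMM. Tests were edgeR's quasi-likelihood test (glmQLFit, robust), with sex as a covariate for genotype and genotype for sex, and 4 group means within sexes and for the interaction. P values were adjusted by Benjamini-Hochberg over all genes tested, with a threshold of 0.05. The SE is the size of the log2 change divided by the root of the F statistic. Versions were edgeR 4.0.16, DESeq2 1.42.0 and limma 3.58.1 in R 4.3.3, and the fit was tested on simulated data. Promoters were matched by symbol to RefSeq tables on GRCm38.p6.

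The members and all lists, motifs and alternatives were chosen with earlier results of these data known. All 32 genes are given, with every mouse for the 4 smallest P values of an arm, for Hsd17b7 (close to the fourth), and for Srebf1, Srebf2, Scap and Insig1. Other lists are given by counts and examples by P value. The values of 1 gene of these lists are not reported here. Alternatives were another scaling, DESeq2, limma voom, other filters, log2(TPM + 1) and log2(TPM + 0.1), no sex term, mice left out singly or in sets, and a term for mice 9 to 12.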

Additional observations from a re-analysis of the deposited data

Results flagged for a closer look

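In 3 of 64 groups of 6 mice, 1 mouse stood apart from the other 5 of its genotype by more than Dixon's limit at 95%, where chance gives about 5% of groups. Acat2 had 79.4 CPM in P278KY male 7, against 63.5 to 69.0 CPM in the other 5 P278KY mice. Ebp had 18.9 CPM in P278KY male 7, against 20.8 to 21.9 CPM in the other 5 P278KY mice. Scap had 90.7 CPM in WT female 1, against 100.5 to 105 CPM in the other 5 WT mice.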

How the results depend on the processing

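The count of the 32 genes lower in P278KY, 23 over all mice, was 22 to 26 with the other scaling, filters and count tools and without a sex term, and 16 with a term for mice 9 to 12. It was 12 on log2(TPM + 1) and 12 on log2(TPM + 0.1), 13 without mice 1 to 4, 9 without mice 7, 10 and 11, 3 without mice 9 to 12 (Acat2, Fdft1 and Msmo1), and 15 to 24 with 1 mouse left out. Sets left out also leave fewer mice. Of the 23 genes, 15 kept their call in all 12 fits with 1 mouse left out, and 22 kept a negative value in every setting. The exception, Acaca, was 0.03318 and 0.0337 on TPM with the larger and smaller pseudocount. In females the count of 1 was 0 to 1 with 1 mouse left out and 0 in females alone. In males the count of 12 was 1 to 14 with 1 mouse left out and 10 in males alone.

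Genes that did not pass changed sign in some settings, and the cause was not tested. On TPM, Srebf2 was 0.04201 and 0.0424. Scap was -0.01158 with limma voom, -0.007778 without mice 1 to 4, and -0.02471 to 0.01892 with 1 mouse left out. With 1 mouse left out in females, Srebf2 was -0.06788 to 0.00752 and Scap -0.04771 to 0.05327. With 1 mouse left out in males, Srebf1 was -0.05125 to 0.1157, Fads2 -0.01251 to 0.04761 and Scap -0.03437 to 0.008027. Without mice 1 to 4 the sex effect was 0.04767 for Lss, 0.0176 for Srebf1, 0.04151 for Scap, 0.01162 for Acaca and -0.05909 for Acss2. Of 768 values of the 32 genes under the genotype settings, 622 kept direction and side of the threshold, 125 lost the call, 12 gained it and 9 changed sign. No paired analysis was possible because the mouse numbers are not shared between genotypes.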
